A study of Homo sapiens with 12 samples.

Results

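The naive pluripotency factors followed here were the genes KLF2, KLF4, KLF5, KLF17, TFCP2L1, TBX3, ESRRB, DPPA3 and DPPA5, taken by symbol from the gene column of the count table, where they made up 9 of 26641 genes. The study placed an activator or a repressor at LTR5HS, the youngest class of long terminal repeat of the endogenous retrovirus HERVK, in NCCIT, a human embryonal carcinoma cell line, and asked which host genes moved. Polyadenylated RNA was sequenced from 6 stable lines in 2 biological replicates each, giving 12 libraries, after 4 days of doxycycline, which switched on the dCas9 fusion in every group. The fusion, built on catalytically dead Streptococcus pyogenes Cas9, was dCas9-VPR, a strong activator (CRISPRa), or dCas9-KRAB, a repressor (CRISPRi). Each line also carried a CARGO array, a construct that expresses 12 guide RNAs at once.

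The LTR5HS Sp array (recruitment) held guides against LTR5HS in the S. pyogenes scaffold, which the fusion can bind. The LTR5HS Sa array held the same guides in the Staphylococcus aureus scaffold, which it cannot bind, and the nontarget Sp array held guides without a human target; both were controls. Every condition was a single line, and the 3 arrays of a fusion were added to the same dCas9 line. Neither the fusion nor the array, and so neither recruitment, can therefore be told apart from the line that carries it. The 2 libraries of a condition are replicates of 1 line.

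In the naive state, which resembles the epiblast of the embryo before implantation, a set of transcription factors and small embryonic proteins is expressed that falls away in the later, primed state. The Kruppel-like factors, TFCP2L1, TBX3 and ESRRB bind DNA and sustain self-renewal downstream of LIF and WNT signals, best worked out in the mouse, whereas DPPA3 and DPPA5 are markers of early embryo and germ cells. In human cells KLF17 marks the naive state, while ESRRB is expressed little there.

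None of the 9 start sites lay within 450 kb of an exact match to a guide. The dCas9 binding sites that the paper measured were not used. A search of hg38 for the 16 guide bases followed by NGG, without mismatch, found 2938 matches, which formed 650 clusters with at least 2 distinct guides. The 9 transcription start sites lay 451 to 6257 kb from the nearest cluster, where the median over genes tested with dCas9-VPR was 1497 kb. Of those genes 23.5% were nearer to a cluster than DPPA5 and 26.6% nearer than KLF2. TFCP2L1 was the most distant. Its nearest cluster, chr2:127542665-127543138 (hg38), stood 6257 kb upstream of the start and held matches to 4 guides, shown here with the PAM in capitals because this was the member with the largest rise:
LTR5HS-10: atagagaaagaaaagtGGG
LTR5HS-2: aaaaccgccttagggcTGG
LTR5HS-8: taaagggtctgtgctgAGG
LTR5HS-4: agcccgacacccgtaaAGG
DPPA3, the member that differed between the dCas9-KRAB control lines, had its nearest cluster 751 kb downstream of its start at chr12:8462257-8462748, with matches to 5 guides, and a match to 1 guide alone 509 kb away:
LTR5HS-7: aaccttggacaataccTGG
LTR5HS-8: taaagggtctgtgctgAGG
LTR5HS-9: gacattccattgcccaTGG
LTR5HS-2: aaaaccgccttagggcTGG
LTR5HS-1: tactaagggaactcagAGG
TBX3 was 3422 kb, KLF5 3444 kb, KLF17 1395 kb, ESRRB 1259 kb, KLF4 1105 kb, KLF2 542 kb and DPPA5 451 kb from a cluster.

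The members' own promoters were also searched for partial matches, in RefSeq windows (hg38) from 250 bases before to 50 after each start. The closest 19-base site to any guide with its NGG differed from that guide at 5 to 7 of the 16 positions in the members' windows, and 60.5% of all 35116 windows held a site with 6 or fewer. TFCP2L1 and KLF2, which rose with dCas9-VPR, each had 6 mismatches at their closest site. The sites are given after their guides, with mismatched bases in capitals:
LTR5HS-2 guide: aaaaccgccttagggc
TFCP2L1 window: CaGaGGgcTCtagggccgg
LTR5HS-11 guide: gaaacgcccacaggtg
KLF2 window: gaaacgcGTCcCggATggg
No window was used for TBX3.

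Libraries held 13601701 to 69797411 counts; the nontarget Sp replicate 2 library with dCas9-KRAB was the deepest, at 3.84 times the median of the others. Levels are CPM, counts scaled to library size after TMM normalization, and a floor of 3 counts equals 0.0462 to 0.233 CPM by library. These floors cover counting error only. In RNA from whole cultures, fewer cells of a type and less RNA per cell cannot be told apart.

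The control lines of the 2 fusions stood apart before any recruitment. All 6 embryonal carcinoma markers were detected in every library, yet all 6 were lower in dCas9-VPR than in dCas9-KRAB controls by the quasi-likelihood test of edgeR (Benjamini-Hochberg adjusted). NANOG had 2.38 ± 1.85 CPM in dCas9-VPR and 151 ± 33.2 CPM in dCas9-KRAB controls, and POU5F1 had 14.2 ± 1.17 and 70.0 ± 18.6 CPM (SD, n = 4 each). The summed level of the 6 markers was 857 to 1439 CPM in dCas9-VPR controls and 3338 to 4028 CPM in dCas9-KRAB controls. The 12 core pluripotency genes examined were all lower in dCas9-VPR controls, with a median log2 difference of −2.29, and so were all 13 primed-state genes that were tested, with a median of −2.25. The median over all genes was −0.018. By the same test 59.1% of all 16673 genes differed between these control lines. With dCas9-VPR 4797 of them were higher and 5058 (30.3% of all genes) were lower. Beside these shares, 3 of 5 trophoblast and 3 of 3 endoderm markers tested were higher in dCas9-VPR controls and none was lower. Of mesoderm markers 3 of 5 were higher, led by HAND1 (4.41, SE 0.37), and the sum over the list was 152 to 287 CPM in dCas9-VPR and 9.39 to 19.6 CPM in dCas9-KRAB controls.

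The members split between the 2 backgrounds. By the same test, 5 of 6 tested members differed between the fusions' control lines, where 59.1% of all 16673 genes did: TBX3, KLF2 and TFCP2L1 were higher with dCas9-VPR, and DPPA3 and KLF4 were higher with dCas9-KRAB. DPPA3 showed the widest gap, with a log2 difference of −5.82 (SE 0.20, adjusted p = 8.7e-09), followed by KLF4 at −3.15 (SE 0.20, adjusted p = 1.6e-07). TBX3 differed by 3.09 (SE 0.31, adjusted p = 4.8e-06) and KLF2 by 2.13 (SE 0.26, adjusted p = 2.4e-05) in the other direction. TFCP2L1 differed by 0.57 (SE 0.10, adjusted p = 0.00048). KLF5 did not pass, at 0.20 (SE 0.14, adjusted p = 0.24).

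**Figure D1:**
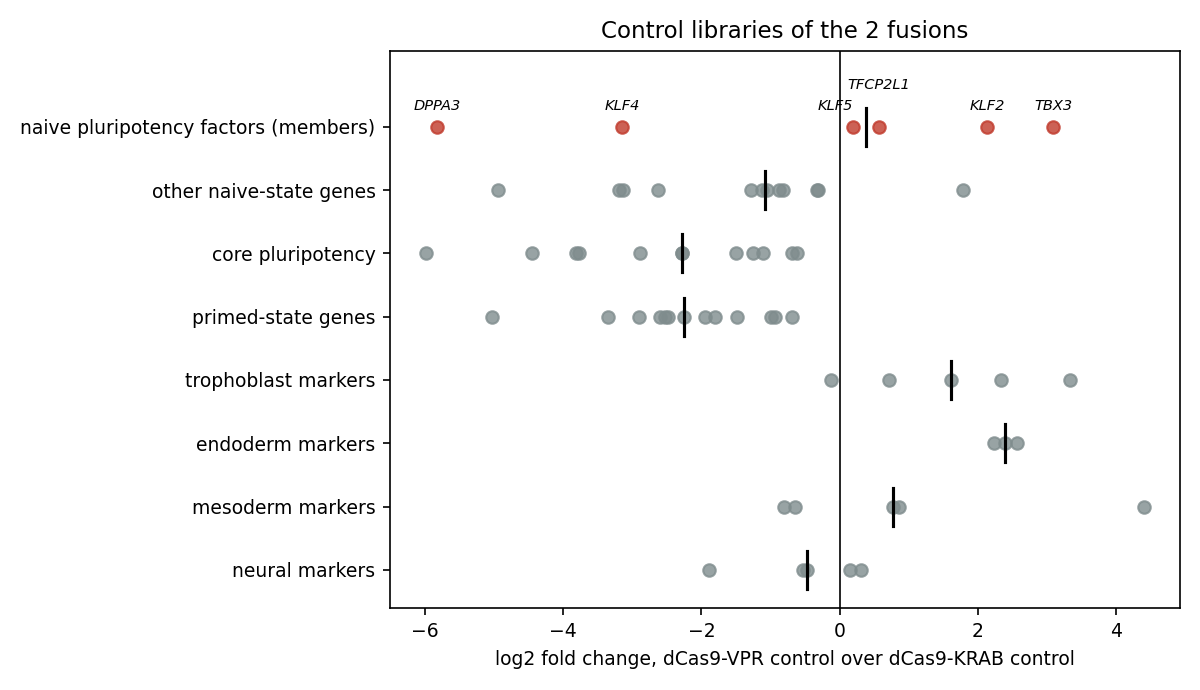
Log2 fold change of dCas9-VPR control libraries over dCas9-KRAB control libraries (horizontal axis) for tested genes of each list (1 point a gene), with the list's median as a black bar. The members spread from −5.82 (DPPA3) to 3.09 (TBX3), whereas all core pluripotency and primed-state genes lie below 0.

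The order of the members' levels per length of the gene model was different in the 2 backgrounds. In dCas9-VPR controls TBX3 led with 6.95 ± 1.41 CPM per kb, and TFCP2L1 (4.30 ± 1.42), KLF2 (4.06 ± 0.885), KLF5 (3.45 ± 0.806) and KLF4 (3.16 ± 0.907) followed within 1 SD of their neighbours (SD, n = 4). DPPA3 had 0.921 ± 0.345 CPM per kb there. In dCas9-KRAB controls DPPA3 had 72.5 ± 59.9 CPM per kb and KLF4 27.9 ± 9.29, and which of them led depended on the line. With nontarget Sp DPPA3 came first, at a mean of 123 CPM per kb against 24.4 for KLF4, and with LTR5HS Sa KLF4 came first, at 31.4 against 21.7 for DPPA3. KLF5 (2.99 ± 0.382) and TFCP2L1 (2.81 ± 0.310) did not differ beyond their spread, nor did KLF2 (0.906 ± 0.397), TBX3 (0.825 ± 0.489) and DPPA5 (0.614 ± 0.365). ESRRB and KLF17 had under 0.1 CPM per kb in both.

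**Figure D2:**
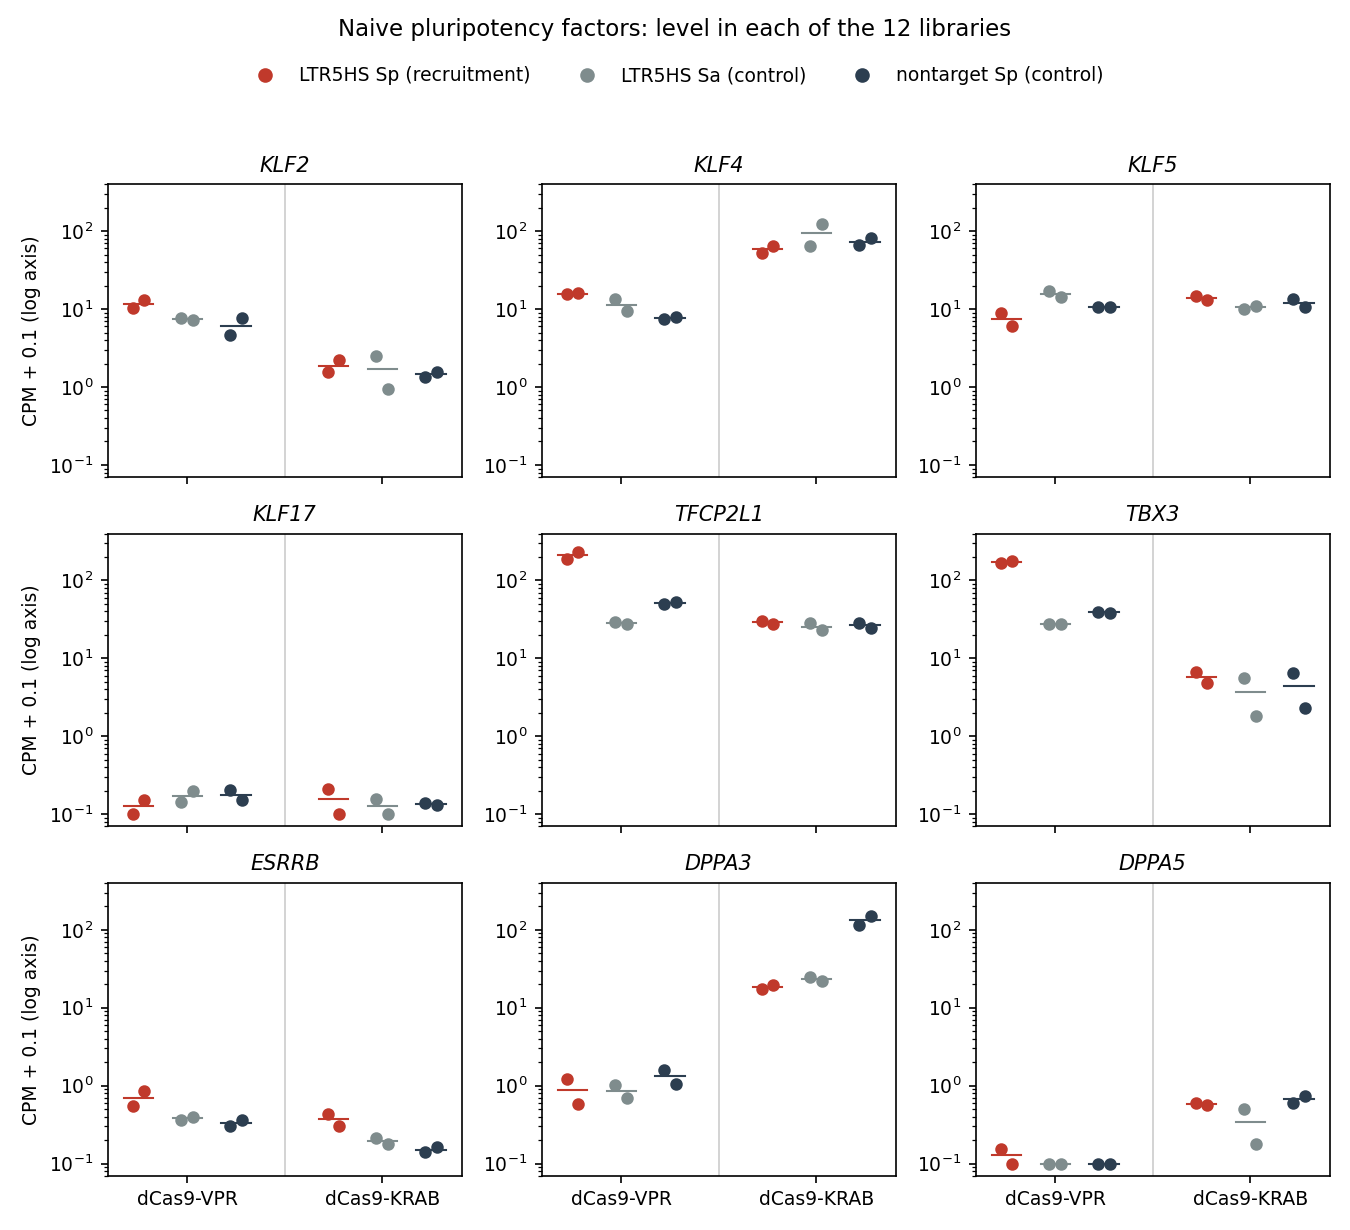
Level of each member in the 12 libraries as CPM with 0.1 added (vertical, log axis), by fusion and array; each point is a library and each bar the mean of 2. TFCP2L1 and TBX3 reach 166 to 231 CPM in the dCas9-VPR recruitment libraries, above every other library, DPPA3 is at 1.49 CPM or less with dCas9-VPR and reaches 117 and 149 CPM with the nontarget Sp array, and KLF17 lies at the bottom of the axis.

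TFCP2L1 and TBX3 rose several-fold when dCas9-VPR was recruited to LTR5HS, and KLF2 rose less. With dCas9-VPR, 3 of 6 tested members passed the threshold of an adjusted p of 0.05, all of them higher, beside 28.0% of 16271 genes in either direction and 15.7% higher. The members' median log2 fold change was 0.77, and that of all genes −0.019. At a distance from a cluster no less than that of DPPA5, the nearest member, 11.4% of 11928 genes were higher. KLF17, ESRRB and DPPA5 did not pass the filter on low counts and were not tested.

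TFCP2L1 is a CP2-family transcription factor of the naive network (chr2:121216587-121285202, minus strand). It had 188 and 231 CPM in the recruitment libraries with dCas9-VPR, against 29.3 and 27.9 CPM with LTR5HS Sa and 49.7 and 52.9 CPM with nontarget Sp. Both recruitment libraries were above all 4 controls, and the 2 control arrays did not overlap each other. The log2 fold change was 2.41 (SE 0.26, adjusted p = 0.00029), a 5.30-fold rise, by the quasi-likelihood test of edgeR (Benjamini-Hochberg adjusted). LTR5HS Sa stood below nontarget Sp by −0.84 on the log2 scale (SE 0.14, adjusted p = 0.0053), and TFCP2L1 was the 1 member of 6 tested for which the dCas9-VPR control lines differed, where 5.24% of all genes did. With the replicate number as a block KLF5 also differed between those lines (0.55, adjusted p = 0.042 in edgeR's test). With dCas9-KRAB the levels were 30.3 and 27.6 CPM on recruitment, 28.3 and 22.7 CPM with LTR5HS Sa and 28.7 and 24.7 CPM with nontarget Sp. These libraries overlapped, and the log2 fold change was 0.16 (SE 0.14, adjusted p = 0.66).

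TBX3 is a T-box transcription factor that sustains self-renewal in mouse embryonic stem cells and also acts in limb, heart and extraembryonic tissue (chr12:114670255-114684175, minus strand). With dCas9-VPR it had 166 and 177 CPM on recruitment, 27.3 and 27.5 CPM with LTR5HS Sa, and 39.6 and 38.5 CPM with nontarget Sp. The groups did not overlap. It rose 5.20-fold, with a log2 fold change of 2.38 (SE 0.17, adjusted p = 2.8e-05). In dCas9-KRAB libraries TBX3 was low, with 6.52 and 4.72 CPM on recruitment, 5.48 and 1.71 CPM with LTR5HS Sa and 6.39 and 2.20 CPM with nontarget Sp. Replicate 2 was the lower of the pair in all 3 of these lines. The groups overlapped, though within each replicate number recruitment was above both controls. The log2 fold change was 0.53 (SE 0.47, adjusted p = 0.67), and 0.68 (SE 0.27, adjusted p = 0.26) with the replicate number as a block, in edgeR's test.

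KLF2 is a Kruppel-like zinc finger factor that in mouse naive cells acts beside KLF4 and KLF5 (chr19:16324826-16328685, plus strand). Its dCas9-VPR levels were 10.3 and 12.9 CPM on recruitment, 7.61 and 7.11 CPM with LTR5HS Sa, and 4.53 and 7.52 CPM with nontarget Sp. The recruitment libraries were the 2 highest of the 6. KLF2 rose 1.74-fold, at a log2 fold change of 0.80 (SE 0.24, adjusted p = 0.039), which lost the threshold in 5 of the 6 fits that left out 1 library (adjusted p 0.051 to 0.27). Those 5 left out either recruitment library, either LTR5HS Sa library or nontarget Sp replicate 2. With dCas9-KRAB it lay between 0.854 and 2.40 CPM in the 6 libraries, the groups overlapped, and the log2 fold change was 0.24 (SE 0.39, adjusted p = 0.83).

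KLF4, one of the original reprogramming factors, and KLF5, a Kruppel-like factor of naive and trophoblast lineages, lay on opposite sides of their dCas9-VPR controls. Neither passed the threshold in edgeR's main test, on the libraries of that fusion. KLF4 (chr9:107484852-107490482, minus strand) had 15.3 and 15.95 CPM on recruitment, 13.3 and 9.25 CPM with LTR5HS Sa and 7.36 and 7.84 CPM with nontarget Sp. Recruitment was above all controls, at a log2 fold change of 0.73 (SE 0.25, adjusted p = 0.060) in edgeR's test, and DESeq2's Wald test gave an adjusted p of 0.031. The change depended on the control array: it was 1.06 (adjusted p = 0.0032) against nontarget Sp alone and 0.46 (adjusted p = 0.11) against LTR5HS Sa alone, in edgeR's test. Without LTR5HS Sa replicate 1 it was 0.95 (adjusted p = 0.00997), the 1 fit of 6 with a library left out that passed.

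KLF5 (chr13:73054976-73077541, plus strand) had 8.77 and 6.01 CPM on recruitment with dCas9-VPR, 16.7 and 14.0 CPM with LTR5HS Sa and 10.4 and 10.6 CPM with nontarget Sp. Both recruitment libraries lay below every control. The log2 fold change was −0.80 (SE 0.27, adjusted p = 0.055) in edgeR's test and DESeq2 gave an adjusted p of 0.018. It was −1.06 (adjusted p = 0.0059) against LTR5HS Sa alone and −0.49 (adjusted p = 0.15) against nontarget Sp alone, in edgeR's test. In the fit of all 12 libraries it was −0.80 (adjusted p = 0.017 in edgeR's test), past the threshold. The threshold was passed without nontarget Sp replicate 1 (−0.90, adjusted p = 0.042) or replicate 2 (−0.89, adjusted p = 0.0495), and in no other fit with 1 library left out. With dCas9-VPR, KLF5 was thus the 1 member tested that pointed down with its groups separated.

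DPPA3, a maternal factor that protects DNA methylation in the early embryo, was scarce in every dCas9-VPR library. It had 1.10 and 0.479 CPM on recruitment, 0.930 and 0.597 CPM with LTR5HS Sa and 1.49 and 0.946 CPM with nontarget Sp. These overlapped, and the log2 fold change was −0.32 (SE 0.47, adjusted p = 0.66).

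With dCas9-KRAB none of the 6 tested members passed edgeR's quasi-likelihood test, where 2.77% of 15520 genes did. DPPA3 alone had an unadjusted p under 0.05 (0.020), and DESeq2 also called 0 of them. The members' median log2 fold change was 0.20, against 0.0006 for all genes.

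**Figure D3:**
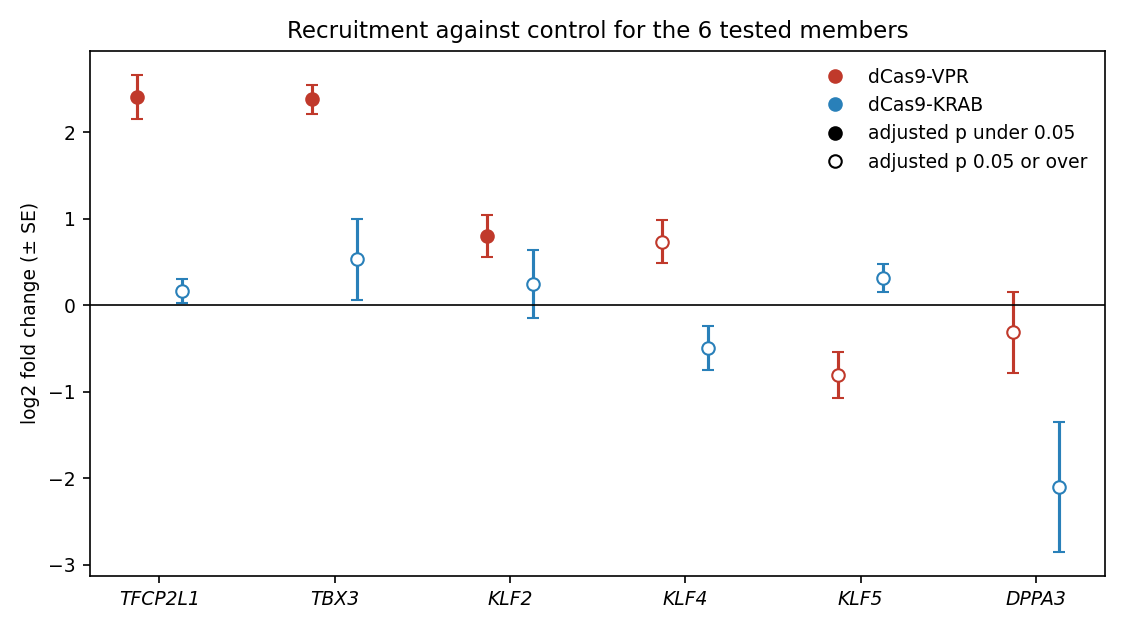
Log2 fold change (vertical axis, with SE bars) of recruitment over control for the 6 tested members with dCas9-VPR (red) and dCas9-KRAB (blue); filled points passed an adjusted p of 0.05. TFCP2L1 (2.41), TBX3 (2.38) and KLF2 (0.80) are filled with dCas9-VPR and no member is filled with dCas9-KRAB.

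DPPA3 (chr12:7711433-7717559, plus strand) was high with the nontarget Sp array in dCas9-KRAB lines and lower with both arrays of LTR5HS guides. It had 17.1 and 19.3 CPM on recruitment and 24.8 and 21.8 CPM with LTR5HS Sa, the control that the fusion cannot bind. The nontarget Sp libraries had 117 and 149 CPM. Recruitment was the lowest group, next to LTR5HS Sa, and both were far below nontarget Sp. Against the pooled controls the log2 fold change was −2.10 (SE 0.75, adjusted p = 0.24). It was −2.85 (adjusted p = 3.7e-05) against nontarget Sp alone and −0.35 (adjusted p = 0.65) against LTR5HS Sa alone, by edgeR's test. Between the control lines themselves, LTR5HS Sa differed from nontarget Sp by −2.49 (SE 0.21, adjusted p = 0.00022). DPPA3 was the 1 of 6 tested members for which these dCas9-KRAB lines differed, where 0.612% of all genes did.

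KLF4 was abundant with dCas9-KRAB and varied between replicates. It had 52.5 and 64.4 CPM on recruitment, 64.2 and 124 CPM with LTR5HS Sa and 65.5 and 80.5 CPM with nontarget Sp. The groups touched, since 1 recruitment library exceeded the lowest control, while within each replicate number recruitment was below both controls. The log2 fold change was −0.50 (SE 0.25, adjusted p = 0.44), and −0.47 (SE 0.18, adjusted p = 0.24) with the replicate block, in edgeR's test. KLF5 had 14.4 and 13.2 CPM on recruitment and 9.93 to 13.2 CPM in the 4 controls, with a log2 fold change of 0.31 (SE 0.17, adjusted p = 0.46).

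The effects of the 2 fusions were then compared directly, as the interaction of recruitment and fusion over all 12 libraries. By edgeR's quasi-likelihood test 4 of 6 members differed, where 21.0% of 16673 genes did. The dCas9-VPR effect exceeded the dCas9-KRAB effect by a log2 of 2.24 for TFCP2L1 (SE 0.33, adjusted p = 0.00036), 1.83 for TBX3 (SE 0.54, adjusted p = 0.029) and 1.23 for KLF4 (SE 0.39, adjusted p = 0.038). For KLF5 the difference was −1.11 (SE 0.32, adjusted p = 0.023). KLF2 (0.56, adjusted p = 0.45) and DPPA3 (1.78, SE 1.34, adjusted p = 0.40) did not pass. TFCP2L1 kept its call without any 1 library, whereas KLF4, TBX3 and KLF5 lost theirs in some of these fits, down to 1 call in all without dCas9-VPR recruitment replicate 2 or without either dCas9-KRAB recruitment library.

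KLF17, ESRRB and DPPA5 were at or near the limit of detection. KLF17, a Kruppel-like factor of the human naive state, had 0 to 2 counts in each of the 12 libraries, so no difference was detectable at this depth. ESRRB, an orphan nuclear receptor, had 8 and 14 counts on recruitment and 4 to 6 counts in the controls with dCas9-VPR, or 0.441 and 0.745 CPM against 0.206 to 0.298 CPM. With dCas9-KRAB it had 6 and 3 counts on recruitment and 1 to 4 counts in the controls, 0.337 and 0.202 CPM against 0.0415 to 0.114 CPM. The groups did not overlap in either fusion, but without the filter on low counts edgeR's test gave adjusted p = 0.099 with dCas9-VPR and adjusted p = 0.27 with dCas9-KRAB. In that unfiltered test ESRRB was higher in dCas9-VPR than in dCas9-KRAB controls, by a log2 of 1.72 (SE 0.62, adjusted p = 0.022). DESeq2's Wald test gave an adjusted p of 0.065 for it.

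DPPA5, a KH-domain protein of pluripotent cells, had 0 counts in the 4 dCas9-VPR controls and 1 and 0 counts on recruitment. The dCas9-KRAB libraries held 9 and 7 counts on recruitment, 7 and 1 with LTR5HS Sa and 12 and 42 with nontarget Sp. Its mean of 0.405 CPM in dCas9-KRAB controls was at least 10.97-fold higher than in dCas9-VPR controls, taking 3 counts over the 4 libraries as the floor. DPPA3 and DPPA5 have near-identical processed pseudogenes, and how reads shared with them were counted is not given in the sources used here, so their counts are uncertain, as are those of NANOG and POU5F1. The strand setting is likewise not given, so reads of overlapping antisense genes cannot be told apart.

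Of a list of 15 other genes of the naive state, 11 were tested with each fusion, and about as many passed as did not. The list was chosen with earlier results of these data known, and the paper names ALPPL2 among its LTR5HS-regulated genes. Its shares beside those of all genes therefore measure no enrichment. In this and the following lists, genes called higher or lower had an adjusted p under 0.05 in edgeR's test, and values are log2 fold changes. With dCas9-VPR 6 of 11 were higher, where 15.7% of all genes were, and none was lower. Among the 6 were NLRP7 (log2 fold change 5.24, SE 0.53), ARGFX (4.63, SE 0.82) and the alkaline phosphatase genes ALPP (4.04, SE 0.18) and ALPPL2 (2.76, SE 0.29). DNMT3L (1.05, SE 0.43), DPPA2 (−0.0038, SE 0.27), TFAP2C (−0.013, SE 0.15), FGF4 (−0.43, SE 0.50) and OOEP (−1.87, SE 0.61) did not pass. With dCas9-KRAB 5 of 11 were lower, where 1.94% of all genes were, and none was higher: ALPP (−3.71, SE 0.41), NLRP7 (−3.63, SE 0.60), ALPPL2 (−3.04, SE 0.23), DNMT3L (−2.08, SE 0.47) and SUSD2 (−0.94, SE 0.18). The list's median log2 fold change was 1.54 with dCas9-VPR and −0.94 with dCas9-KRAB. Reads of ALPP and ALPPL2, near-identical copies, may be split between them. These 5 genes lay 15.4 to 44.6 kb from a guide match cluster, whereas ARGFX, 4323 kb away, rose with dCas9-VPR and was not tested with dCas9-KRAB. Over all genes within 40 kb of a cluster 68.4% were higher with dCas9-VPR and 35.8% lower with dCas9-KRAB, against 11.5% and 0.250% at 450 to 2000 kb and 11.4% and 0.286% beyond 2000 kb, the ranges in which the members lie.

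**Figure D4:**
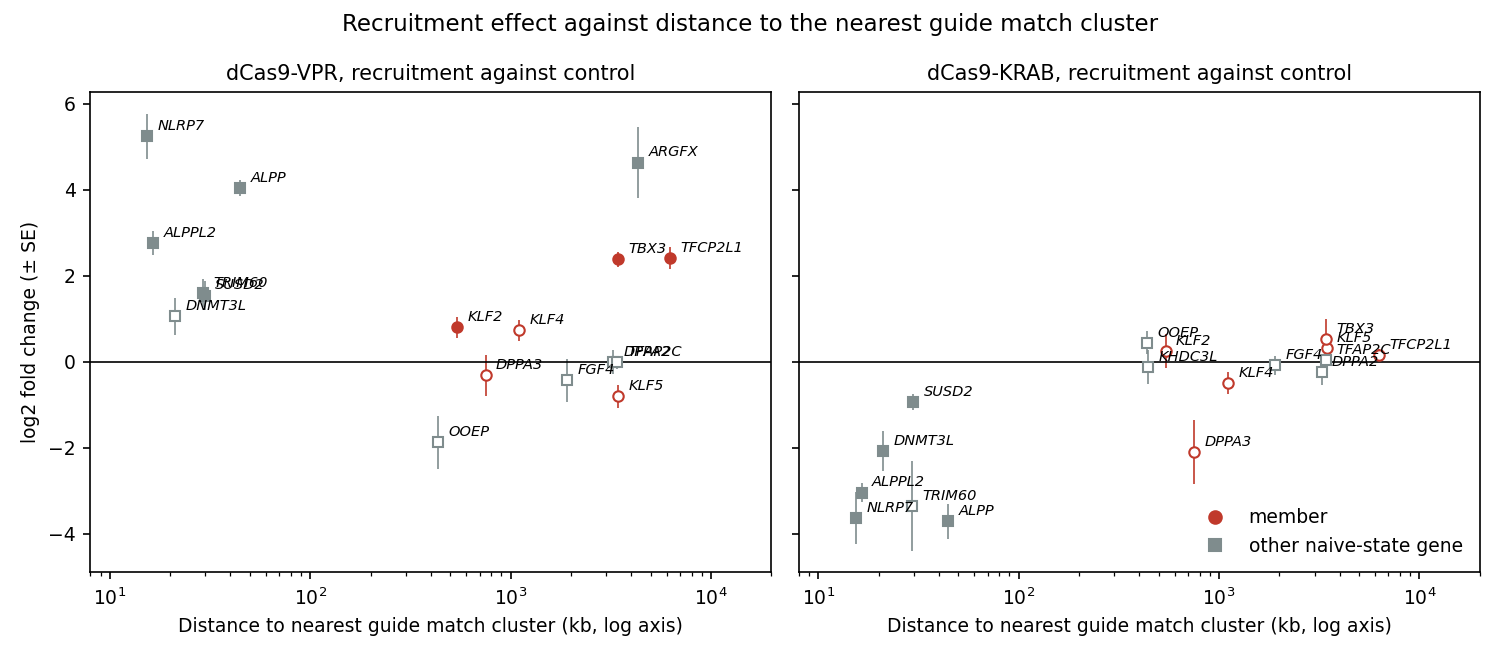
Log2 fold change of recruitment over control (vertical axis, with SE bars) against the distance from the start site to the nearest guide match cluster (horizontal, log axis, kb) with dCas9-VPR (left) and dCas9-KRAB (right); red circles are members, grey squares other naive-state genes, and filled symbols passed an adjusted p of 0.05. The genes lowered with dCas9-KRAB all lie within 44.6 kb, and the members all lie at 451 kb or more.

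Of 16 tested neighbours of the members 2 passed with dCas9-VPR, GLI2 and SLC6A9, where 28.0% of all genes did. With dCas9-KRAB 0 of 18 passed by edgeR's test, where 2.77% of all genes did. Of these 18, 3 had an unadjusted p under 0.05 in that test. SLC6A9, 87.4 kb from KLF17, was lower with dCas9-VPR, at a log2 fold change of −0.73 (SE 0.23, adjusted p = 0.046). Beside TFCP2L1, GLI2 (549 kb away) was higher with dCas9-VPR by a log2 of 0.76 (SE 0.20, adjusted p = 0.021) and CLASP1 (364 kb) was not, at 0.09 (SE 0.10, adjusted p = 0.55), in edgeR's test. GDF3, 15.7 kb from DPPA3 and a TGF-beta family gene of pluripotent cells, differed by −0.80 (SE 0.29, adjusted p = 0.074) and −0.82 (SE 0.29, adjusted p = 0.23) with dCas9-VPR and dCas9-KRAB. It was lower in dCas9-VPR controls than in dCas9-KRAB controls by −2.76 (SE 0.19, adjusted p = 2.7e-07), the direction DPPA3 had.

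Among other genes of the members' factor families, 4 of 11 Kruppel-like factors and 4 of 11 paralogs passed with dCas9-VPR, beside 28.0% of all genes. Of the 11 other Kruppel-like factors tested with dCas9-VPR, KLF7 (1.84, SE 0.16), KLF8 (1.21, SE 0.13) and KLF16 (0.45, SE 0.12) were higher and KLF15 (−1.64, SE 0.25) was lower. KLF7, 128 kb from a cluster, was also the 1 of 11 that was lower with dCas9-KRAB (−0.88, SE 0.14). Among 11 paralogs of TFCP2L1, TBX3, ESRRB and the DPPA genes, GRHL3 (2.53, SE 0.28) and TBX4 (2.22, SE 0.27) were higher and ESRRG (−1.16, SE 0.28) and GRHL1 (−0.86, SE 0.19) lower with dCas9-VPR, and none of 10 tested passed with dCas9-KRAB. The medians with dCas9-VPR were 0.29 for the Kruppel-like factors and −0.30 for the paralogs.

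The genes whose pattern over the 12 libraries was nearest to the 3 members that rose were named by the root mean square difference of mean-centred log2 CPM. For TFCP2L1 these were NFAM1 (0.16), MSX2 (0.18) and TMEM51 (0.22), where the SD of TFCP2L1 itself was 1.13. For TBX3 they were WLS (0.34), TMEM132B (0.45) and SYNPO (0.45), beside an SD of 2.22. For KLF2 they were NOXO1 (0.25), PRSS57 (0.27) and TSPAN10 (0.28), beside an SD of 1.30. None of them was another member.

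In the pathways that act on the members, some genes passed with dCas9-VPR and most did not, where 28.0% of all genes passed and 15.7% were higher. Of 11 tested WNT and TCF7L1 genes, 5 were higher with dCas9-VPR and none lower, led by SP5 (5.37, SE 0.36), LEF1 (4.54, SE 0.24), AXIN2 (2.09, SE 0.19) and NKD1 (1.76, SE 0.26), which are transcriptional targets or feedback regulators of the pathway. Of 11 LIF and JAK-STAT3 genes 4 were higher, among them the coreceptor IL6ST (1.48, SE 0.19) and the feedback inhibitor SOCS3 (1.33, SE 0.24), and PIM3 (−0.91, SE 0.19) was lower. Of 14 FGF and ERK genes 2 were higher, 4 lower and 8 did not pass. The medians with dCas9-VPR were 0.38 for the WNT, 0.04 for the LIF and 0.21 for the FGF list, beside −0.019 for all genes. With dCas9-KRAB, where 2.77% of all genes passed, none of the WNT or LIF genes did, and FGF2 (0.73, SE 0.16) was higher and SPRY4 (−0.53, SE 0.10) lower.

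Markers of other cell types moved with dCas9-VPR recruitment too, where 28.0% of all genes passed and 15.7% were higher. All 4 trophoblast markers tested were higher, CDX2 (3.72, SE 0.39), TP63 (2.36, SE 0.50), GATA2 (1.76, SE 0.15) and GATA3 (1.48, SE 0.29). The summed level of the 8 genes was 88.3 to 97.9 CPM on recruitment and 23.9 to 31.3 CPM in dCas9-VPR controls, and ELF5 and CGA were at 0 on recruitment. With dCas9-KRAB the sum was 12.7 to 15.6 CPM on recruitment and 6.94 to 9.59 CPM in controls. GATA3 was higher there (1.47, SE 0.29), 1 of 4 tested, where 2.77% of all genes passed. GATA6 (1.29, SE 0.22) was the 1 of 3 tested endoderm markers and EOMES (4.29, SE 0.35) the 1 of 4 mesoderm markers that were higher with dCas9-VPR, while TUBB3 (−0.70, SE 0.20), a neuronal tubulin, was lower. The summed level of the 6 embryonal carcinoma markers was 741 to 757 CPM on recruitment with dCas9-VPR, below the 857 to 1439 CPM of its controls, and 3227 to 3690 CPM against 3338 to 4028 CPM with dCas9-KRAB. TFCP2L1, TBX3, KLF4 and KLF5 are also expressed outside the naive state, and the part that such cells had in the members' changes was not tested.

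Of 12 core pluripotency genes 1 rose with dCas9-VPR and 4 fell, where 28.0% of all genes passed and 15.7% were higher. L1TD1 (1.62, SE 0.26) was higher, and UTF1 (−1.39, SE 0.36), SOX2 (−1.24, SE 0.25), PRDM14 (−0.91, SE 0.19) and ZFP42 (−0.56, SE 0.13) were lower. POU5F1 (0.43, SE 0.35) and NANOG (0.44, SE 0.58) did not pass. Of 13 primed-state genes 2 were higher, DUSP6 (1.97, SE 0.54) and THY1 (0.97, SE 0.21), and 4 lower, among them ZIC2 (−1.62, SE 0.50) and OTX2 (−1.12, SE 0.27). The medians were −0.07 for the core and −0.16 for the primed list. With dCas9-KRAB none of the core or primed genes passed, where 2.77% of all genes did.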

How the data were processed

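RNA-seq libraries from 12 samples of NCCIT lines were used. The authors deposited 1 table of raw, not normalized counts for every gene in each library, with the length of each gene model in bp. Per the labels and the paper's methods, reads were base-called with CASAVA 1.8, trimmed with cutadapt 1.8.1, aligned to hg38 (hg38_tran index) with HISAT2 2.1.0 and assigned to genes with featureCounts 1.4.6-p2; the annotation and strand setting are not given in the sources used here. Genes kept by filterByExpr were tested with edgeR 4.0.16 (quasi-likelihood F-test, TMM scaling, Benjamini-Hochberg adjustment over all tested genes, threshold 0.05), after checks on simulated data. CRISPRa and CRISPRi tests used the 6 libraries of 1 fusion, recruitment (2) against both control arrays (4); the interaction used all 12, and contrasts between control lines a fit of 6 groups. The SE printed with a log2 fold change was derived from edgeR's test. It is the absolute log2 fold change divided by the square root of the F statistic. DESeq2 1.42.0 and other filters, scalings, controls, libraries left out and guide minimums were alternatives.

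The log2 CPM used for likeness had 0.1 added. Guide matches were sought on 24 chromosomes of hg38 and joined within 1000 bp, and start sites came from GENCODE release 44, in which 91.2% of genes were matched by symbol (1260 through RefSeq synonyms). Every member was named, and of each list at most the 4 genes with the largest changes past the threshold were named beside its counts, with a few non-passing or further genes chosen after their values were seen. The members and lists were chosen with earlier results of these data known. Replicate numbers come from the labels. Differences between replicates 1 and 2 correlated between arrays of a fusion (r 0.18 to 0.38 over 6 pairs across tested genes). Between fusions r was 0.057 to 0.34 over 9 pairs, a range that overlaps the first. The replicate number entered only the fits named as blocked, which were alternatives, and all other fits held no term for it. Repeat transcripts and chromatin data were not analysed here. A result of the marker lists is not reported here.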

Additional observations from a re-analysis of the deposited data

Results flagged for a closer look

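The effect of recruitment differed between the 2 fusions for 4 members by the interaction term in edgeR's quasi-likelihood test: the dCas9-VPR log2 fold change minus the dCas9-KRAB log2 fold change was 2.24 for TFCP2L1 (adjusted p = 0.00036), 1.83 for TBX3 (adjusted p = 0.029), 1.23 for KLF4 (adjusted p = 0.038) and −1.11 for KLF5 (adjusted p = 0.023). These members also differed in level between the fusions' control lines, except KLF5 (adjusted p = 0.24 in the same test). For KLF2 in dCas9-VPR controls, 1 library, nontarget Sp replicate 1, lay apart at 4.53 CPM from the other 3 at 7.11 to 7.61 CPM, a gap of 0.837 of the range. This was 1 of 17 groups of 4 examined, and chance sets apart about 1 in 20.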

How the results depend on the processing

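Of the members' fold changes and distances, 253 of 292 values under alternatives kept their direction and side of the threshold, 23 lost the threshold, 9 gained it, 3 turned and 4 distances moved. DESeq2's Wald test called 5 members with dCas9-VPR in place of 3 (KLF4 and KLF5 added), and nontarget Sp alone as control called 1 with dCas9-KRAB (DPPA3) in place of 0. The interaction called 1 at a threshold of 0.01 (TFCP2L1). The replicate block called 2 in place of 1 between the dCas9-VPR control lines and changed no other count. Between the control lines of the 2 fusions, the fit without the filter called 7 of 9 in place of 5 of 6 (DPPA5 and ESRRB added). At least 10 counts in every library gave 4 of 5 there. At least 10 counts in every library removed DPPA3, with 9 counts in 1 library, from the test of the dCas9-KRAB control lines, leaving 0 calls. Leaving out 1 library gave 2 to 4 calls with dCas9-VPR, 0 to 0 with dCas9-KRAB, 1 to 4 for the interaction, 0 to 1 between dCas9-VPR control lines (0 without LTR5HS Sa replicate 2) and 1 between dCas9-KRAB ones.

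With 1 library left out, DPPA3 ranged from −1.02 to 0.16 with dCas9-VPR, above 0 without recruitment replicate 2, and it turned to 0.030 against LTR5HS Sa alone, and KLF2 ranged from −0.036, without recruitment replicate 2, to 0.52 with dCas9-KRAB; none of these passed. KLF2 also lost its call in the fit of all 12 libraries (adjusted p = 0.054), and its range was 0.017 to 0.27 over 14 alternatives. KLF5 gained a call as lower in the fit of all 12 libraries (adjusted p = 0.017 in edgeR's test). TFCP2L1 and TBX3 kept their dCas9-VPR calls in all 14 alternatives, at log2 fold changes of 2.05 to 2.87 for TFCP2L1. With at least 4 distinct guides the nearest cluster moved to 3832 kb for KLF2, 1410 kb for KLF17 and 4363 kb for DPPA5, and any single guide match brought DPPA3 to 509 kb. The cause of these shifts was not tested, apart from fewer libraries or genes where a fit left them out. With 2 libraries per line, p-values of the contrasts between control lines measure the spread between cultures of 1 line. The recruitment and interaction tests pooled the 2 control lines of a fusion. Their spread therefore also holds the difference between those lines. Neither measures the spread between independent lines of a condition. Low counts limit KLF17, ESRRB and DPPA5.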
